A study of Mus musculus with 8 samples.

Results

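The 10 genes described here are the nuclear end of the Hippo pathway with some of its best-known transcriptional targets: the coactivators Yap1 and Wwtr1 (which encodes TAZ), the DNA-binding factors Tead1, Tead2 and Tead4, and the targets Ccn1 (also called Cyr61), Ccn2 (also called Ctgf), Ankrd1, Amotl2 and Lats2. They were chosen by name and matched to the 54446 genes of the count tables by Ensembl ID, and all 10 were found and passed the filter on low counts. Nuclear RNA had been sequenced from C57BL/6 mouse embryonic stem cells in 4 groups of 2 libraries: Mettl14 control, Mettl14 conditional knockout (cKO), Mettl3 control and Mettl3 cKO. The enzyme that places N6-methyladenosine (m6A) on RNA joins METTL3, which holds the active site, to METTL14, which helps it bind RNA, and the series asks what the loss of either changes in nuclear RNA. All groups shared a medium with 15% serum, LIF at 1000 U/ml, the GSK3 inhibitor CHIR99021 at 3 µM and the MEK inhibitor PD0325901 at 1 µM. How and when the genes were deleted, which exons were removed, whether a group is 1 clone and whether its libraries came from separate cultures is stated nowhere in the labels, so the p-values measure the spread between libraries, which may be technical.

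YAP and TAZ carry no DNA-binding domain of their own. They enter the nucleus, bind TEAD proteins and through them activate genes of growth, adhesion and the matrix. The Hippo kinase cascade, ending in LATS1 and LATS2, phosphorylates YAP and TAZ, which are then held in the cytoplasm or degraded. Several targets feed back on the pathway: LATS2 is itself a kinase of YAP, and AMOTL2, an angiomotin, binds YAP and keeps it at junctions and actin. In the early embryo YAP and TEAD4 act in the outer cells that become trophectoderm, and cultured fibroblasts on stiff plastic are a common example of cells with active YAP.

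The genes are protein-coding and lie, in mm10 with GENCODE M21 models, on several chromosomes. The targets are Ccn1 (ENSMUSG00000028195, chr3:145646976-145649981, minus strand), Ccn2 (ENSMUSG00000019997, chr10:24595442-24598683, plus), Ankrd1 (ENSMUSG00000024803, chr19:36111961-36120099, minus), Amotl2 (ENSMUSG00000032531, chr9:102716672-102733418, plus) and Lats2 (ENSMUSG00000021959, chr14:57689662-57758388, minus). The coactivators are Yap1 (ENSMUSG00000053110, chr9:7931999-8004596, minus) and Wwtr1 (ENSMUSG00000027803, chr3:57455649-57575910, minus). The TEAD genes are Tead1 (ENSMUSG00000055320, chr7:112679318-112906807, plus), Tead2 (ENSMUSG00000030796, chr7:45215753-45233644, plus) and Tead4 (ENSMUSG00000030353, chr6:128224288-128300823, minus). Counts are per gene, so exons and isoforms were not told apart.

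TEAD proteins recognise a short core, CATTCC on one strand and GGAATG on the other, and the stretches upstream of the target genes that hold it are shown here because these genes are read as reporters of YAP and TEAD. RefSeq promoter windows (GRCm38.p6) were found for 7 of the 10 genes, all but Ccn2, Tead1 and Tead4. In the 250 bases before the annotated start, 5 of those 7 genes had the core on either strand. Counted by window, 6 of the 9 windows of these genes held it, the 2 overlapping windows of Wwtr1 sharing 1 site, and 12.6% of 32851 promoter windows of the same length did. The genes with the core were Ccn1, Ankrd1, Amotl2, Yap1 and Wwtr1. The AP-1 motif TGANTCA, searched in the same way and not overlapping the TEAD core, was in 0 of the 9 windows of these genes and in 6.75% of all promoters. The Ccn1 window, chr3:145649986-145650235 on the minus strand, lies outside the annotated exons of Ccn1, and its core starts 103 bases before the start site. For the other genes 30 bases around each match are given, 5′ to 3′ on the strand of the gene, with the core in capitals. A match of letters is a description and not a measured binding site.
Ccn1: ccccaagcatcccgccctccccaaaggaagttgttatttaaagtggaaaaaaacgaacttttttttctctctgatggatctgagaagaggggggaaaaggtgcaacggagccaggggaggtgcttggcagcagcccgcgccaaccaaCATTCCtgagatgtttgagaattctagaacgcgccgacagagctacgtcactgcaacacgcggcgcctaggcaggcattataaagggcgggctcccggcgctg
Ankrd1, 210 bases upstream: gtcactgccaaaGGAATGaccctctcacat
Ankrd1, 123 bases upstream: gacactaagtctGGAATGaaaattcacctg
Amotl2, 65 bases upstream: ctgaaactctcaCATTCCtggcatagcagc
Yap1, 141 bases upstream: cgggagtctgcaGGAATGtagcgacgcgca
Wwtr1, 136 bases upstream: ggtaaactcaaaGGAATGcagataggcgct
The Ankrd1 stretches lie at chr19:36120037-36120066 and chr19:36119950-36119979, that of Amotl2 at chr9:102717727-102717756, that of Yap1 at chr9:8004720-8004749 and that of Wwtr1 at chr3:57576029-57576058. Amotl2 is on the plus strand and the others on the minus strand. The Ankrd1 and Amotl2 matches also fall inside exons of longer annotated transcripts of those genes (GENCODE M21), so they are upstream of the RefSeq start only.

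The libraries held 17235889 to 20086128 counted reads each, and every one of the 10 genes had at least 138 reads in every library. Mettl14 fell from 58.3 and 54.99 CPM (reads scaled to library size) in the Mettl14 controls to 27.79 and 30.22 in the Mettl14 cKO. Mettl3 fell from 37.91 and 36.09 CPM in the Mettl3 controls to 19.82 and 18.55 in the Mettl3 cKO. RNA of both targeted genes thus remained detectable in the knockouts (log2 -0.96 and -0.95), and the direction matched the labels. The Mettl14 level in the Mettl3 controls, 30.1 and 26.72 CPM, was as low as in the Mettl14 cKO. All 12 pluripotent stem cell markers examined were detected in all 8 libraries, at a summed 3876 CPM in Mettl14 control, 2909 in Mettl14 cKO, 1662 in Mettl3 control and 1594 with Mettl3 deleted. A list of 21 fibroblast markers summed to 1323, 2891, 9508 and 11040 CPM in the same order. Of these, the type I collagen gene Col1a1 stood at 270 CPM in Mettl14 control, 337.6 in Mettl14 cKO, 2706 and 3294 in the Mettl3 control and knockout. Collagen genes led the sum in Mettl3 control, with Col1a2, Col5a2 and Col5a1 next at 1790, 1500 and 922.5 CPM. Lum, Dcn, Thy1, Twist2 and S100a4 had group means up to 4.23 CPM. Of the 21 markers, Lum alone had no count in 1 library, and the others were detected in all 8. Primitive endoderm markers summed to 2716, 3500, 4111 and 4333 CPM and trophectoderm markers to 290.6, 357.9, 229 and 258 CPM. Few genes led the sums in Mettl14 control: Sparc and Lamc1 (684.4 and 1505 CPM), and Krt8 and Krt18 (153 and 64.54). Gata6, Gata4, Sox17, Sox7, Foxa2 and Hnf4a had group means up to 3.54 CPM. Of 12 trophectoderm markers tested, 2 rose and 4 fell in the Mettl14 line, and 5 and 0 in the Mettl3 line. For 13 primitive endoderm markers the counts were 6 and 0, then 4 and 2. Of all genes 18% rose and 22.4% fell in the first line, and 15.1% and 5.78% in the second. The 2 lines differed in both stem cell and fibroblast markers before any knockout, and in these bulk samples fewer cells of a type and less RNA per cell cannot be told apart.

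Ccn2 encodes a secreted matricellular protein and is widely used as a reporter of YAP and TEAD. Its level was 167.7 and 165.7 CPM in the Mettl14 controls, 267.8 and 281.2 in the Mettl14 cKO, 502.8 and 497.7 in the Mettl3 controls, and 587.5 and 604.2 in the Mettl3 cKO. The 4 groups did not overlap, and both knockouts lay above their own controls. The rise was 1.65-fold in the Mettl14 line (log2 0.72 ± 0.03 SE, adjusted p = 6.43e-46) and 1.19-fold in the Mettl3 line (log2 0.25 ± 0.03, adjusted p = 1.14e-14). The difference between the 2 changes was itself past the threshold (log2 0.47 ± 0.04, adjusted p = 6.96e-20). A noncoding gene on the opposite strand, Gm15270, shares 665 exon bases with Ccn2 at a mean of 6.87 CPM, and whether reads were counted by strand is not stated.

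Ccn1, the sister gene of Ccn2, had 74.62 and 79.66 CPM in the Mettl14 controls, 82.27 and 87.67 in the Mettl14 cKO, 303.7 and 318.6 in the Mettl3 controls, and 341.4 and 345.3 in the Mettl3 cKO. Both knockouts lay above their controls without overlap, but by far less than the gap between the lines. Ccn1 rose 1.10-fold in each line (log2 0.14 ± 0.04, adjusted p = 0.00526 for Mettl14, and 0.14 ± 0.03, adjusted p = 0.000112 for Mettl3). The Mettl14 call was lost with DESeq2 (adjusted p = 0.233), without the first Mettl14 control library (0.276) and without the second Mettl14 cKO library (0.293), and the Mettl3 call with upper-quartile scaling (0.558). The difference between the changes was 0.00 ± 0.05 (adjusted p = 0.982), but 0.16 and called with upper-quartile scaling (adjusted p = 0.0156).

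Ankrd1, a nuclear cofactor best known in heart and muscle, had the fewest reads of the 5 targets. Its level was 10.24 and 8.66 CPM in the Mettl14 controls, 12.11 and 10.54 in the Mettl14 cKO, 27.39 and 25.31 in the Mettl3 controls, and 25.98 and 24.42 in the Mettl3 cKO. The Mettl3 groups overlapped, and the Mettl14 groups were close but apart. Neither knockout passed the test (log2 0.26 ± 0.12, adjusted p = 0.0786, and -0.06 ± 0.08, adjusted p = 0.651). The Mettl14 value passed with upper-quartile scaling (adjusted p = 0.0359) and with only the Mettl14 line fitted (adjusted p = 0.0388). The difference between the changes was not called (log2 0.32 ± 0.15, adjusted p = 0.0809), but it was with upper-quartile scaling (log2 0.48, adjusted p = 0.00678).

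Amotl2 had 342.4 and 333.5 CPM in the Mettl14 controls and 365 and 362 in the Mettl14 cKO, then 568.9 and 556.7 in the Mettl3 controls and 569 and 558.5 in the Mettl3 cKO. The Mettl14 groups were apart by a small margin and the Mettl3 groups overlapped. Amotl2 rose 1.08-fold in the Mettl14 line (log2 0.11 ± 0.03, adjusted p = 0.000861), a call lost with DESeq2 (adjusted p = 0.251). Its log2 change in the Mettl3 line was 0.00 ± 0.03 (adjusted p = 0.966), and it was a called fall of -0.11 with upper-quartile scaling (adjusted p = 0.000395). The difference between the changes (log2 0.10 ± 0.04, adjusted p = 0.0252) lost its call without any 1 of the 8 libraries. Leaving out a library also redid the filter and the scaling, which moved the median of all genes by -0.042 to -0.024 in this comparison.

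Lats2, the feedback kinase, fell in the Mettl14 line, where Ccn1, Ccn2 and Amotl2 rose. It had 21.57 and 22.41 CPM in the Mettl14 controls, 14.85 and 15.4 in the Mettl14 cKO, 32.11 and 27.38 in the Mettl3 controls, and 33.32 and 35.4 in the Mettl3 cKO. Both Mettl14 cKO libraries were the lowest of all, and the Mettl3 cKO libraries the highest. Lats2 fell to 68.8% of control in the Mettl14 line (log2 -0.54 ± 0.09, adjusted p = 4.12e-07). It rose 1.15-fold in the Mettl3 line (log2 0.21 ± 0.07, adjusted p = 0.0351), a call lost without the second Mettl3 control library (adjusted p = 0.333) or the second Mettl3 cKO library (0.11), and with upper-quartile scaling (0.419), RLE scaling (0.0636), DESeq2 (0.113) or only the Mettl3 line fitted (0.112). The changes differed by log2 -0.75 ± 0.12 (adjusted p = 7.51e-08). Gm49361, a gene model on the same strand, shares 2955 exon bases with Lats2 and was counted at 0 CPM, so reads in the shared exons may have been left out of both.

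**Figure D1:**
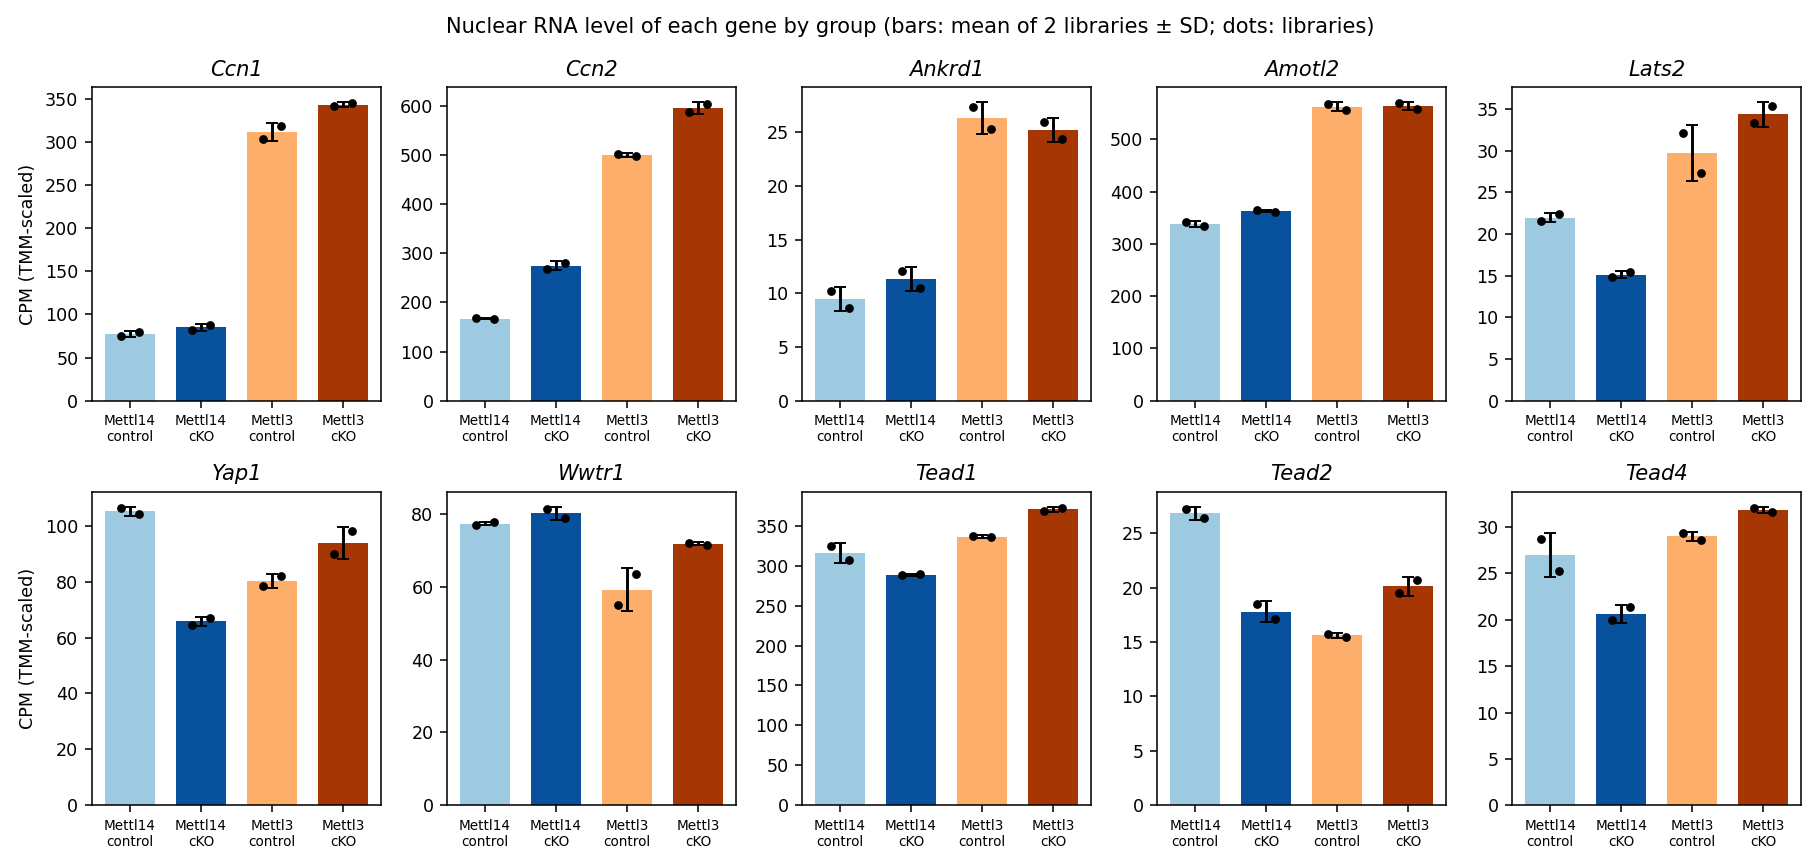
CPM (linear axis from 0) of each of the 10 genes in the 4 groups, with bars for the mean of 2 libraries, error bars for the SD and dots for the libraries. Ccn1, Ccn2, Ankrd1 and Amotl2 are higher in both Mettl3 groups than in both Mettl14 groups, whereas Yap1 is highest in Mettl14 control (105.2 CPM) and lowest in Mettl14 cKO (65.8 CPM).

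Yap1 fell in the Mettl14 knockout. It had 106.4 and 104.1 CPM in the Mettl14 controls, 64.57 and 66.96 in the Mettl14 cKO, 78.44 and 81.99 in the Mettl3 controls, and 89.85 and 98.05 in the Mettl3 cKO. No 2 groups overlapped, and the order was Mettl14 control, Mettl3 cKO, Mettl3 control and Mettl14 cKO. The level fell to 62.5% of control in the Mettl14 line (log2 -0.68 ± 0.05, adjusted p = 4.28e-27) and rose 1.17-fold in the Mettl3 line (log2 0.23 ± 0.05, adjusted p = 2.74e-05). The Mettl3 rise missed the threshold with upper-quartile scaling (log2 0.12, adjusted p = 0.06). The difference between the changes was log2 -0.91 ± 0.07 (adjusted p = 1.34e-25). Yap1 RNA was thus lower in the Mettl14 cKO, where the Ccn2 level was higher.

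Wwtr1, the gene of TAZ, had 77.05 and 77.72 CPM in the Mettl14 controls, 81.49 and 79 in the Mettl14 cKO, 55.03 and 63.42 in the Mettl3 controls, and 72.1 and 71.5 in the Mettl3 cKO. The Mettl3 controls were the lowest of the 8 libraries. No change was called in the Mettl14 line (log2 0.05 ± 0.05, adjusted p = 0.444), and the level rose 1.21-fold in the Mettl3 line (log2 0.28 ± 0.05, adjusted p = 5.3e-06). The changes differed by log2 -0.23 ± 0.07 (adjusted p = 0.00783), a call lost with upper-quartile scaling (adjusted p = 0.49) and without the first Mettl3 control library (0.121).

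Tead1 was by far the most abundant of the 3 TEAD genes, also per length of annotated exons: 23.3 CPM per kilobase in Mettl14 control, against 7.50 for Tead4 and 5.61 for Tead2. Its level was 324.6 and 306.8 CPM in the Mettl14 controls, 288 and 289.6 in the Mettl14 cKO, 337.7 and 335.5 in the Mettl3 controls, and 368.2 and 372.9 in the Mettl3 cKO. Changes were small: a fall to 91.5% in the Mettl14 line (log2 -0.13 ± 0.03, adjusted p = 0.000121) and a 1.10-fold rise in the Mettl3 line (log2 0.14 ± 0.03, adjusted p = 4.53e-05). The latter call was lost with upper-quartile scaling (adjusted p = 0.581). The changes differed by log2 -0.27 ± 0.04 (adjusted p = 1.45e-08).

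Tead2 had the largest fitted difference between the knockouts of the 10 genes, close to that of Yap1. It had 27.26 and 26.43 CPM in the Mettl14 controls, 18.47 and 17.1 in the Mettl14 cKO, 15.79 and 15.44 in the Mettl3 controls, and 19.5 and 20.74 in the Mettl3 cKO. The groups did not overlap, and the Mettl14 controls stood above all others. Tead2 fell to 66.2% of control in the Mettl14 line (adjusted p = 6.77e-09) and rose 1.29-fold in the Mettl3 line (log2 0.37 ± 0.09, adjusted p = 0.00139). The changes differed by log2 -0.96 ± 0.13 (adjusted p = 1.88e-10).

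Tead4, the TEAD of the trophectoderm, had 28.67 and 25.3 CPM in the Mettl14 controls, 19.98 and 21.34 in the Mettl14 cKO, 29.36 and 28.65 in the Mettl3 controls, and 32.09 and 31.62 in the Mettl3 cKO. The 2 control groups overlapped, and the Mettl14 cKO was below both. The fall in the Mettl14 line was to 76.7% of control (log2 -0.38 ± 0.08, adjusted p = 5.64e-05). The log2 change in the Mettl3 line was 0.14 ± 0.07 (adjusted p = 0.203). The changes differed by log2 -0.52 ± 0.11 (adjusted p = 6.45e-05).

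Counted together, 8 of the 10 genes passed the test in the Mettl14 line, where 40.4% of the 21782 genes tested did. Ccn1, Ccn2 and Amotl2 rose (18% of all genes rose), and Lats2, Tead1, Tead2, Tead4 and Yap1 fell (22.4% of all genes fell). All 10 genes are abundant, and among the 10099 genes averaging 3 or more on the log2 CPM scale the share called was 66.6% (25.7% as higher and 40.9% as lower), so 8 of 10 is not far from the background of genes like them. Their median log2 change was -0.04, beside 0.03 over all genes tested. With DESeq2 only 1 of the 3 rises was called, that of Ccn2, and the 5 falls were.

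In the Mettl3 line 7 of the 10 rose and 0 fell, with Ankrd1, Amotl2 and Tead4 not called. Of all genes tested, 20.9% were called, 15.1% as higher and 5.78% as lower, and of the abundant ones 36.7% were called, 29.6% as higher and 7.05% as lower. The median log2 change of the 10 was 0.18, beside 0.03 over all genes. The direction of small changes in this line depends on the scaling: upper-quartile scaling moved the median of all genes by -0.11 and the share of called genes that were higher from 72.3% to 31.8%. Under it 3 of the 10 genes stayed called as higher (Ccn2, Tead2 and Wwtr1) and Amotl2 was called as lower. Without the filter on low counts the median moved by 0.11, 91.2% of called genes were higher, and 9 of the 10 were called as higher.

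The difference between the knockouts was called for 8 genes, where 33.2% of all genes and 55% of the abundant ones were called. Ccn2 and Amotl2 changed more upwards in the Mettl14 line (12.7% of all genes and 14.8% of the abundant ones did), and Lats2, the 3 TEAD genes, Yap1 and Wwtr1 more downwards (20.5% and 40.2% did). Upper-quartile scaling, which moved the median of all genes by 0.16 here, gave 4 higher and 5 lower calls, and the share of higher calls over all genes went from 38.4% to 60.6%. Lats2, Tead1, Tead2, Tead4 and Yap1 were lower under that scaling as well. The plot of changes sets the Mettl14, Mettl3 and control comparisons side by side, and the difference between the knockouts is not drawn.

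**Figure D2:**
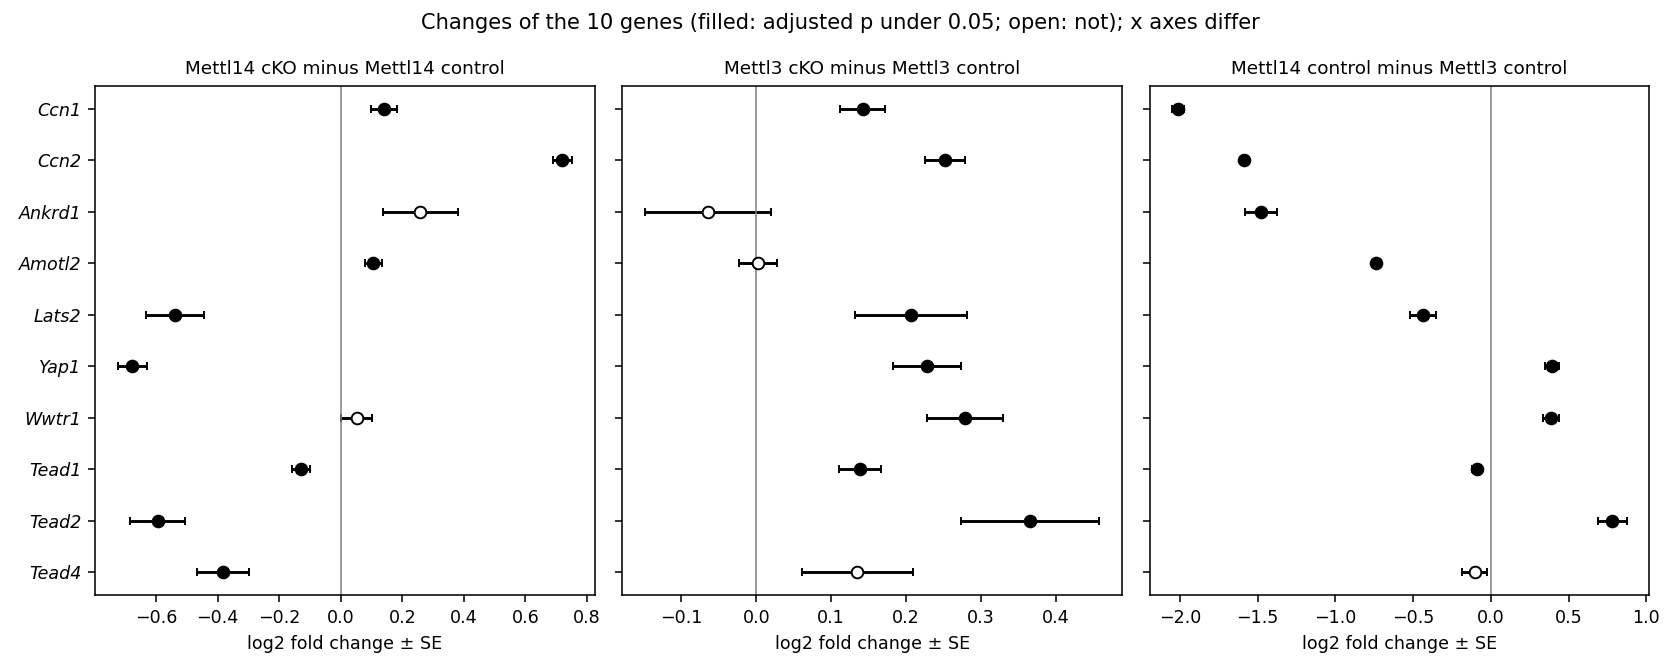
Log2 fold changes with SE of the 10 genes in the Mettl14, Mettl3 and control comparisons (x axes differ between panels), with filled points for an adjusted p under 0.05 and open points otherwise. Yap1, Tead2 and Lats2 lie left of 0 in the Mettl14 panel and right of 0 in the Mettl3 panel, and Ccn2 lies right of 0 in both.

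The control lines differed in 9 of the 10 genes, where 67.8% of all genes and 83.7% of the abundant ones were called. Ccn1 was at 24.8% of its Mettl3 control level in Mettl14 control (log2 -2.01 ± 0.04, adjusted p = 5.71e-89), Ccn2 at 33.3% (log2 -1.59 ± 0.03, adjusted p = 5.56e-88) and Ankrd1 at 35.9% (log2 -1.48 ± 0.10, adjusted p = 1.8e-27). Amotl2 was at 60.0% and Lats2 at 73.9%. So 6 genes were lower in Mettl14 control (34.1% of all genes and 25.9% of the abundant ones were), including Tead1 at 93.8%. The Tead1 call was lost without any 1 of the 8 libraries and with DESeq2 (adjusted p = 0.877). Leaving out a library also redid the filter (23509 to 24441 genes tested) and the scaling. The median of all genes then moved by 0.027 to 0.058, also without a cKO library, which is not compared here. The other 3 called genes were higher in Mettl14 control (33.6% and 57.9% were): Tead2 1.72-fold (adjusted p = 1e-13), Yap1 1.31-fold (adjusted p = 9.59e-14) and Wwtr1 1.31-fold (adjusted p = 3.86e-11). Tead4 was not called (log2 -0.10 ± 0.08, adjusted p = 0.232). Upper-quartile scaling moved the median of all genes by -0.22 in this comparison and changed the direction of none of the 10. Leaving out the filter on low counts moved it by 0.14 and turned the sign of Tead1 and Tead4, to 0.05 and 0.03.

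Mettl14 control, with the higher Yap1 level of the 2 control groups, thus had the lower levels of the 5 targets. Summed fibroblast marker RNA had the same order of groups as Ccn1 and Ccn2, though not as Lats2, and the Mettl3 groups of Ankrd1 and Amotl2 overlapped. The primitive endoderm sum had that order too, as did summed AP-1 factors (120.1, 147, 193.9 and 236.3 CPM from Mettl14 control to Mettl3 cKO). Relative to Mettl14 control, the fibroblast sum stood at 2.19 times in Mettl14 cKO, 7.19 times in Mettl3 control and 8.35 times in Mettl3 cKO. Of the 20 fibroblast markers tested, 16 rose and 0 fell in the Mettl14 line (18% of all genes rose and 22.4% fell). In the Mettl3 line 10 rose and 2 fell (15.1% and 5.78%). Of the abundant genes 25.7% rose and 40.9% fell in the first line, and 29.6% and 7.05% in the second. With upper-quartile scaling 7 rose and 2 fell in the Mettl3 line. Between the controls 19 were lower and 1, Twist1, was higher in Mettl14 control (34.1% and 33.6% of all genes, 25.9% and 57.9% of the abundant ones). Summed stem cell markers moved the other way, at 0.75, 0.429 and 0.411 times Mettl14 control. Of the 12 stem cell markers, 1 rose and 11 fell in the Mettl14 line (18% and 22.4% of all genes, 25.7% and 40.9% of the abundant ones). In the Mettl3 line 2 rose (Pou5f1 and Klf2) and 5 fell (15.1% and 5.78% of all genes, 29.6% and 7.05% of the abundant ones). With upper-quartile scaling 1 rose and 7 fell there. Between the controls 11 were higher in Mettl14 control (33.6% of all genes and 57.9% of the abundant ones were). Utf1 was lower (34.1% and 25.9%). The part of these markers in the levels of Ccn1, Ccn2, Ankrd1 and Amotl2 was not tested.

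**Figure D3:**
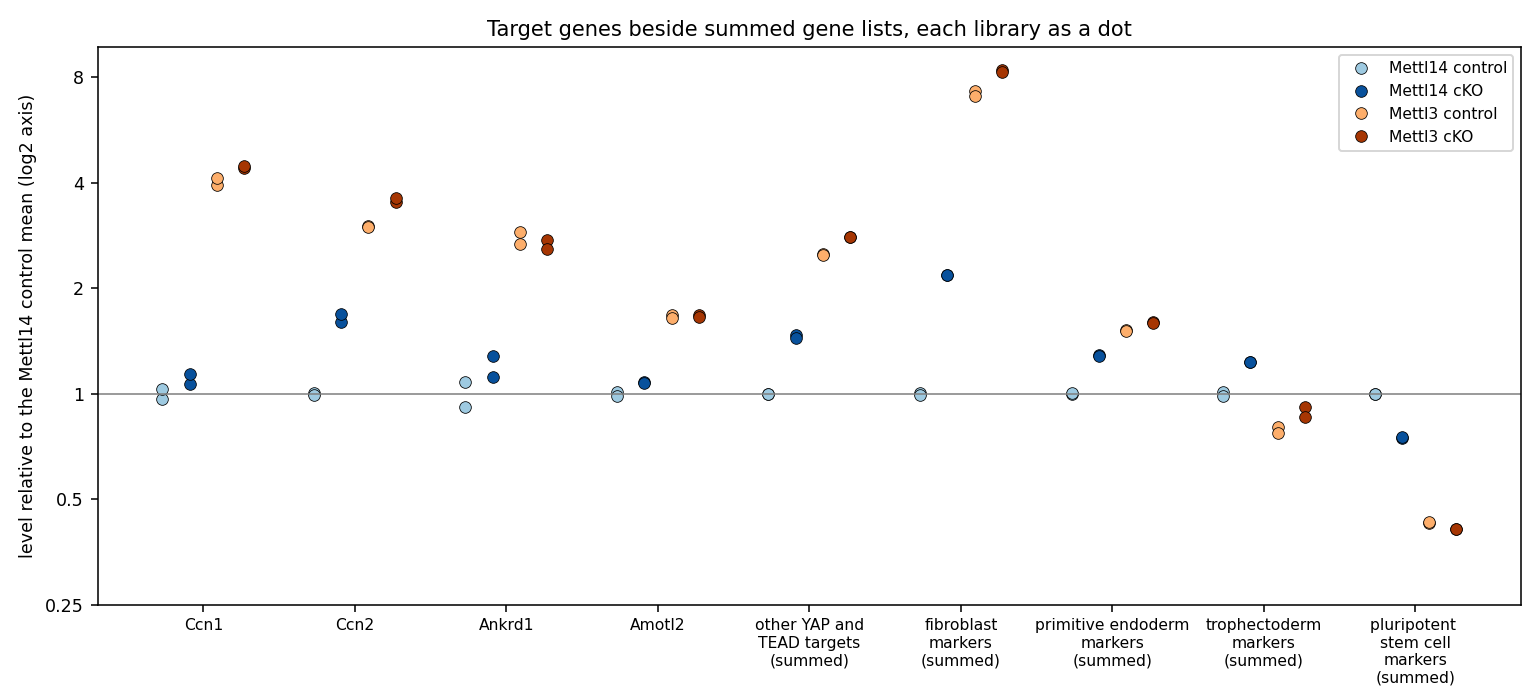
Levels relative to the Mettl14 control mean (log2 axis, each library a dot) of target genes beside the summed CPM of gene lists, by group. Ccn1 reaches 3.94 to 4.13 times in Mettl3 control but only 1.07 to 1.14 times in Mettl14 cKO, while the fibroblast marker sum is already at 2.19 times there.

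A further list of 17 YAP and TEAD targets gave the targets as a wider group. In the Mettl14 line 14 rose, 1 fell and 2 were not called, with a median log2 change of 0.63 beside 0.03 over all genes. Of all genes 18% rose and 22.4% fell, and of the abundant ones 25.7% and 40.9%. Nt5e, a cell surface enzyme that makes adenosine, rose by log2 1.32 ± 0.05 (41.9 to 105 CPM, adjusted p = 1.03e-49), and the secreted matrix protein gene Ccdc80 rose by log2 0.81 ± 0.03 (186 to 325 CPM, adjusted p = 1.14e-53). Asap1, which encodes a regulator of ARF GTPases, fell by 0.41 on the log2 scale (adjusted p = 5.01e-11). Of the 17, 10 rose and 1 fell in the Mettl3 line (median 0.18), and upper-quartile scaling left 5 rises and 2 falls. There 15.1% of all genes rose and 5.78% fell, and 29.6% and 7.05% of the abundant ones. Nt5e again rose (log2 0.60 ± 0.05, adjusted p = 1.04e-20), and F3, which encodes tissue factor, fell by 0.22 (adjusted p = 0.000173). Between the controls 16 of the 17 were lower in Mettl14 control and 0 higher, where 34.1% and 33.6% of all genes were (25.9% and 57.9% of the abundant ones). Their summed level was 914.5 CPM in Mettl14 control, 1334 in Mettl14 cKO, 2288 and 2562 in the Mettl3 control and knockout. The fibroblast, primitive endoderm and AP-1 sums had the same order.

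Upstream, 24 Hippo kinases and regulators divided in the Mettl14 line: 5 rose, 12 fell and 7 were not called (median log2 change -0.10). Those shares are near those of the abundant genes, of which 25.7% rose and 40.9% fell. The giant cadherins rose, Fat1 from 926.4 to 1753 CPM (log2 0.92 ± 0.02, adjusted p = 6.5e-75) and Fat4 from 10.87 to 25.58 CPM (log2 1.24 ± 0.09, adjusted p = 2.41e-25). The kinases Stk38 (log2 -0.66 ± 0.04, adjusted p = 1.51e-35) and Stk3, which encodes MST2 at the head of the cascade (log2 -0.64 ± 0.06, adjusted p = 1.5e-18), fell. Of the 24, 16 rose in the Mettl3 line and 0 fell (median 0.14), where 29.6% of abundant genes rose and 7.05% fell, and with upper-quartile scaling 3 rose and 1 fell. There Mob1a, the LATS activator, rose by log2 0.26 ± 0.05 (adjusted p = 1.31e-05) and Fat1 by 0.17 ± 0.02 (adjusted p = 1.55e-11), and both were called with that scaling too.

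Partners and inhibitors of YAP and TEAD numbered 22, of which 21 could be tested. In the Mettl14 line 6 rose and 9 fell (median -0.07), again near the shares of abundant genes (25.7% and 40.9%). Amot, the angiomotin that binds YAP, rose from 31.3 to 60.7 CPM (log2 0.95 ± 0.06, adjusted p = 1.67e-31), and Ajuba, a LIM protein that restrains LATS, by log2 0.40 ± 0.05 (adjusted p = 9.52e-13). Ywhaz and Ywhae, adaptors that hold phosphorylated YAP in the cytoplasm, fell by 0.70 (adjusted p = 3.56e-49) and 0.52 (adjusted p = 2.88e-41) on the log2 scale. Mettl3 loss was accompanied by 12 rises and 0 falls (median 0.16), where 29.6% of abundant genes rose and 7.05% fell, and with upper-quartile scaling by 3 rises and 3 falls. Ajuba (log2 0.44 ± 0.04, adjusted p = 9.97e-17) and Vgll3, a TEAD cofactor (log2 0.45 ± 0.05, adjusted p = 2.17e-13), rose under either scaling.

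AP-1 factors, which often bind beside TEAD, were 8 genes. In the Mettl14 line 3 rose and 0 fell, where 18% of all genes rose and 22.4% fell (25.7% and 40.9% of the abundant ones). Among them were Jun (log2 0.64 ± 0.07, adjusted p = 3.43e-16) and Fosl2 (log2 0.72 ± 0.11, adjusted p = 5.22e-09). With Mettl3 deleted 4 rose and 2 fell, where 15.1% of all genes rose and 5.78% fell (29.6% and 7.05% of the abundant ones). Upper-quartile scaling left 3 rises and 2 falls. Fosl2 (log2 0.48 ± 0.06, adjusted p = 5.1e-10) and Jund (log2 0.45 ± 0.05, adjusted p = 9.52e-12) were among the risers, and the immediate-early genes Fos and Fosb fell by 0.86 (adjusted p = 1.75e-07) and 1.18 (adjusted p = 6.06e-05) on the log2 scale. Between the controls 7 were lower and 1 higher in Mettl14 control, where 34.1% and 33.6% of all genes were (25.9% and 57.9% of the abundant ones).

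**Figure D4:**
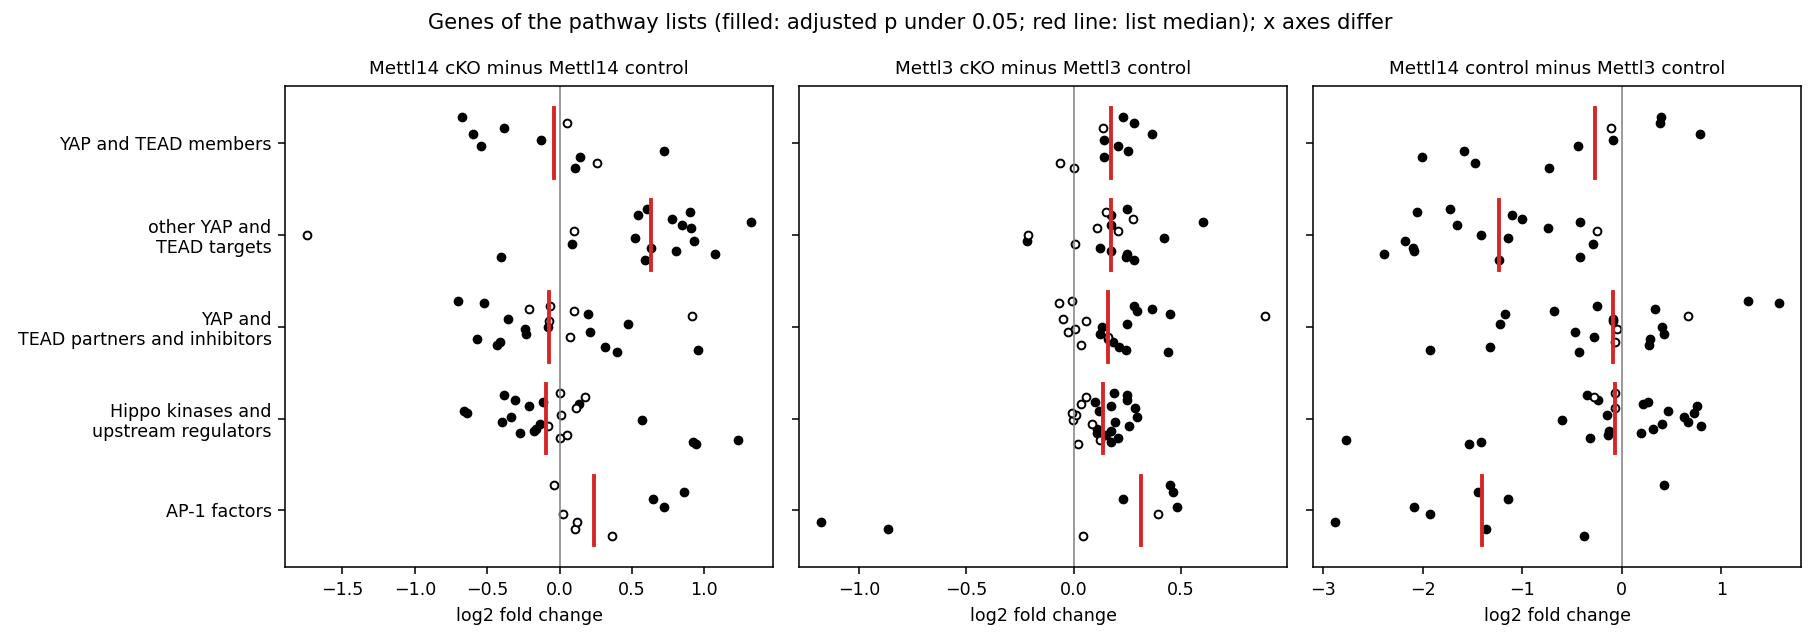
Log2 fold changes of the genes of each pathway list in the comparisons (each dot a gene, filled where the adjusted p is under 0.05, red line the list median, x axes differ). The 17 further targets sit mostly right of 0 in the Mettl14 panel (median 0.63), while the kinases and the partners spread to both sides.

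Of 9347 abundant protein-coding genes outside the 10, those whose log2 CPM followed Ccn2 most closely over the 8 libraries were Itpr2, Igsf10, Itgav, Lhfp and Igfbp7 (Pearson r of 0.9991 to 0.9998). Itgav, an integrin subunit, went from 190.1 CPM in Mettl14 control to 244.1 in Mettl14 cKO, then 334.7 and 370.9 in the Mettl3 control and knockout. The genes closest to Yap1 were Sept11, Zfp609, Mapk9, Rbfox2 and Arid1a (r of 0.9842 to 0.9895). Arid1a, a subunit of a chromatin remodelling complex, went from 326.4 to 197.2, 254.3 and 281.4 CPM in the same order. The 8 points are pairs of libraries from 4 groups in 2 lines, so these coefficients describe the ordering of the groups.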

How the data were processed

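Nuclear RNA, depleted of ribosomal RNA and made into stranded total RNA libraries per the labels' protocols, was deposited as raw read counts per gene. The submitters' processing notes name the mm10 genome and, as tools, HISAT2 2.1.0, Trimmomatic 0.38, HTSeq and CASAVA; the annotation release, strand setting and handling of multi-mapped reads are stated in none of the sources used here. Ensembl IDs were matched to GENCODE M21 (54409 of 54446 genes); 0 lines named no gene.

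Groups and replicate numbers come from the sample titles. All 8 libraries entered 1 edgeR 4.0.16 fit (R 4.3.3; TMM scaling, filterByExpr at a minimum count of 10, robust quasi-likelihood test, 4 group means, 4 residual degrees of freedom), with Benjamini-Hochberg adjustment over the 21782 genes tested and a threshold of 0.05. CPM use TMM-scaled library sizes. The test was tested on simulated data, with few genes changed and the others at the same share in all groups. The difference between the changes was not simulated, nor were shifts in as many genes as were called here. Libraries of a group correlated at r of at least 0.9959 and differed by more than sampling noise (chi-square of 1.41 to 1.974 for each degree of freedom), so each was counted.

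The 10 genes and all gene lists were chosen with earlier results of these data known, and no list was tested as a set. All 10 are named, together with Mettl14 and Mettl3. Of each other list, up to 2 called genes with the smallest p in each direction and knockout, above a mean log2 CPM of 1, could be named, and not all so chosen are reported. For Ccn2 and Yap1 the 5 genes with the highest r were taken. Levels of Col1a1 and of the other fibroblast markers named, and values of Itgav and Arid1a beside their r, were singled out after their values were seen. Motifs were searched on both strands of 250 bases before each RefSeq start. Alternatives were RLE and upper-quartile scaling, no filter on low counts, DESeq2 1.42.0, a replicate block, only the line compared, and leaving out each library. Runs on fewer libraries also redid the filter and the scaling.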

Additional observations from a re-analysis of the deposited data

Results flagged for a closer look

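The change in the Mettl14 line differed from that in the Mettl3 line, by the test of the difference itself, for 8 of the 10 genes, where 33.2% of all genes tested and 55% of the abundant ones were called. The differences (Mettl14 change minus Mettl3 change, log2 scale) were 0.47 for Ccn2, 0.10 for Amotl2, -0.75 for Lats2, -0.27 for Tead1, -0.96 for Tead2, -0.52 for Tead4, -0.91 for Yap1 and -0.23 for Wwtr1. The call of Amotl2 was lost with RLE scaling, with DESeq2, without the filter on low counts and without any 1 of the 8 libraries. Lats2, Tead1, Tead2 and Yap1 fell in the Mettl14 knockout and rose in the Mettl3 knockout, though the rises of Lats2, Tead1 and Yap1 were not called with upper-quartile scaling. Each line has its own controls, and the controls of the 2 lines already differed in these genes other than Tead4. For Tead1 that call was lost with DESeq2, without the filter on low counts and without any 1 of the 8 libraries.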

How the results depend on the processing

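Over the 10 genes and 4 comparisons, 485 recomputed values kept their direction and side of the threshold, 34 lost their call, 6 gained one and 15 changed sign. In the Mettl3 line, 2952 of the 12887 genes given an adjusted p were called with DESeq2, against 4552 of 21782, so the counts have unlike bases. Upper-quartile scaling called 4 of the 10 genes there against 7, and the cause was not tested. Signs that changed belonged to values near 0. In the Mettl3 line, Amotl2 went to -0.0159 with RLE, -0.11 with upper-quartile scaling and -0.0352 with only that line fitted, Ankrd1 to 0.0425 without the filter (-0.0867 to 0.0246 leaving out 1 library), and the marker Lamc1 to 0.0457 without the filter. For the difference, Amotl2 went to -0.0063 without the filter and Ccn1 to a called 0.16 with upper-quartile scaling (-0.0912 to 0.0093 leaving out 1 library). Wwtr1 in the Mettl14 line went to -0.0035 with DESeq2. Between controls, Tead1 went to 0.0455 and Tead4 to 0.0332 without the filter (Tead4 -0.139 to 0.0308 leaving out 1 library). Leaving out 1 library gave 7292 to 8985 called genes in the Mettl14 line and 3968 to 5329 in the Mettl3 line. In the Mettl14 line, the rise of Ccn2 and the falls of Yap1, Lats2, Tead1, Tead2 and Tead4 kept their calls in every alternative run.

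With the replicate number as a block, 8835, 4620, 7275 and 14754 genes were called in the Mettl14, Mettl3, difference and control comparisons, and the same number of the 10 genes as without it (8, 7, 8 and 9). Samples of the same number correlated in their deviations at only -0.032 to 0.109. With 2 libraries in each group this cannot settle whether they shared a batch, and the labels give only the number. The genes with few reads had the wider errors: in the Mettl3 line the SE was 0.08 for Ankrd1 and 0.07 for Tead4, against 0.03 for Ccn2.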
